A study of Mus musculus with 18 samples.

Results

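A set of 10 genes of the death receptor and necroptosis pathway were followed through macrophages that had been given lipopolysaccharide (LPS), the BET inhibitor (+)-JQ1, the cytokine IL-10, or LPS after either of these. They were picked out by name for their place in the pathway, with no cut-off on a measured value, and all 10 were found among the 24485 genes listed for each library. They are the receptors Fas, Tnfrsf1a and Tnfrsf1b, the receptor-bound signalling proteins Traf1, Birc3 and Ripk1, the protease Casp8 with its regulator Cflar, and the necroptosis genes Ripk3 and Mlkl.

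Death receptors are cell surface proteins of the TNF receptor superfamily whose cytoplasmic death domain recruits adaptor proteins when a ligand binds. TNF bound to Tnfrsf1a (TNFR1) first assembles a membrane complex in which Ripk1 is ubiquitinated by IAP proteins and drives NF-kB signalling. When that complex is not held in check, Ripk1 moves with Fadd and Casp8 into a cytosolic complex that leads to apoptosis. Casp8 paired with cFLIP, the product of Cflar, cleaves Ripk1 and Ripk3 and holds off necroptosis, a lytic death in which Ripk3 phosphorylates Mlkl and Mlkl ruptures the plasma membrane. In macrophages these proteins are also known to act downstream of Toll-like receptors, among them the LPS receptor.

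All cells were bone marrow-derived macrophages (BMDMs) grown for 6 days in L929-conditioned medium from Il10-/- mice on the C57BL/6J background, which the methods of the study describe as 12-week-old males. Every group, controls included, carried the Il10-/- label, and there was no wild-type group in these libraries. Cells received (+)-JQ1 at 500 nM, IL-10 at 10 ng/mL or neither for 12 hours, and then LPS at 50 ng/mL or buffer for 4 hours, which gave 6 groups: unstimulated, JQ1, IL-10, LPS, LPS + JQ1 and LPS + IL-10. Each group held 3 libraries made from the marrow of 3 mice, and the labels do not say whether libraries with the same replicate number share a mouse. The labels call cells given neither agent untreated, whereas the methods name a vehicle control before LPS. JQ1 is a small molecule that displaces BET proteins from acetylated histones, and IL-10 is an anti-inflammatory cytokine, the product of the targeted gene.

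Expected counts added up to between 6781952 and 28289498 per library, so that the smallest share a library could show (3 counts) was between 0.106 and 0.442 CPM (counts scaled to the library total), counting error only. Il10 itself had reads in every library (3.20 to 14.6 TPM, the length-scaled share of transcripts), most in LPS + JQ1 and LPS + IL-10 libraries (9.65 to 14.6 TPM), so that these values do not show the gene as absent, and no wild-type library was there to compare. The 8 macrophage markers added up to 14300 to 29100 TPM per library, lowest with LPS and highest with JQ1, and the marker lists of 6 other cell types added up to at most 10.2 TPM each. Of those markers, Ly6g and Hba-a2 had no reads in any library. In bulk RNA a lower value can reflect fewer cells that express the gene or less RNA per cell, which cannot be told apart. Values below are normalised counts (expected counts divided by DESeq2 size factors) unless TPM is named, fold changes are on the log2 scale, and a gene was called changed at a Benjamini-Hochberg adjusted p under 0.05 over all genes tested with the DESeq2 Wald test.

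The levels of the 10 genes were compared with each other in TPM, which is scaled to gene length. In unstimulated macrophages Tnfrsf1b (TNFR2) had the highest level, 291.8 TPM ± 6.73 (SD, n = 3), followed by Tnfrsf1a at 131 TPM ± 10.4, Casp8 at 47.0 ± 0.352 and Ripk1 at 39.0 ± 2.32. Birc3 (29.5 TPM) and Cflar (27.2 TPM) came next and their replicate ranges overlapped, as did those of Mlkl (8.94 TPM) and Ripk3 (7.88 TPM), and those of Fas (3.52 TPM) and Traf1 (2.40 TPM). The necroptosis effectors and Fas were thus among the lowest of the 10 genes at rest.

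With LPS the order changed, and no neighbours in it overlapped between replicates. Tnfrsf1b remained first at 1239 TPM ± 70.5, but Cflar rose to the second place (539 TPM ± 80.9) and Traf1 from the last to the third (279 TPM ± 14.6). Mlkl stood at 146 TPM ± 10.5, above Casp8 at 99.4 TPM ± 4.52. Ripk1 (28.2 TPM ± 3.39) and Ripk3 (3.47 TPM ± 0.629) were the 2 lowest. In LPS + JQ1 libraries Traf1 was back to the second lowest level (24.6 TPM ± 1.56), overlapping Fas (27.3 TPM ± 4.42). Ripk3 had its highest mean of the 6 groups there, 9.71 TPM ± 1.02, but its range (8.77 to 10.79 TPM) overlapped that of unstimulated cells (6.94 to 9.39 TPM).

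**Figure D1:**
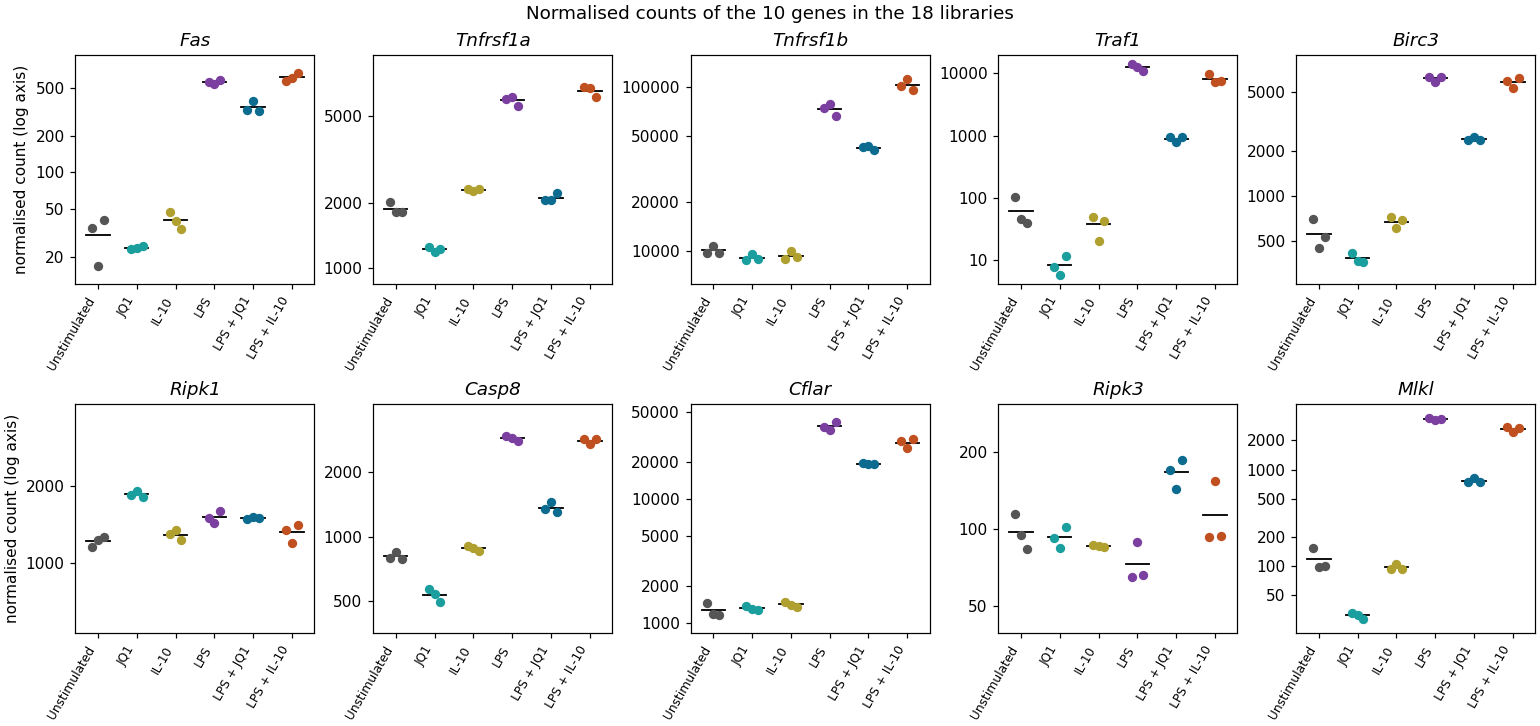
Normalised count (log axis) of each of the 10 genes in the 18 libraries, 1 panel per gene. Points are replicates 1, 2 and 3 from left to right in each group and bars are group means. In every gene except Ripk1 and Ripk3 the LPS libraries sit above all libraries without LPS, and in LPS + JQ1 libraries 8 of the 10 sit below the LPS libraries while Ripk3 sits above them (144 to 186 against 65.0 to 88.9).

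LPS raised 9 of the 10 genes over unstimulated cells and lowered none, where 31.6% of all 14965 genes tested were called higher and 64.5% were called in either direction. The median log2 fold change of the 10 genes was 3.15, against -0.07 over all tested genes. This median of all genes depends on the scaling, at -0.15 with TMM factors, -1.02 with total-count scaling and -0.69 with log2(TPM + 1), and small changes below have to be read against it. Of all calls, 49% were higher, 20.1% with total-count scaling and 23.2% with log2(TPM + 1).

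Among the receptors, Fas, the receptor for Fas ligand, had normalised counts of 34.7, 16.9 and 40.2 in unstimulated replicates 1, 2 and 3, and 556, 542 and 583 with LPS. All LPS libraries lay far above the unstimulated ones (16.8-fold, log2 fold change 4.07, SE 0.179, DESeq2 adjusted p 4.13e-113). Tnfrsf1a, the TNF receptor with a death domain, had 2010, 1813 and 1808 at rest and 5972, 6081 and 5569 with LPS (log2 fold change 1.64, SE 0.0623, DESeq2 adjusted p 6.37e-152). Tnfrsf1b, the TNF receptor without a death domain, which signals through TRAF2, had 9738, 10723 and 9733 at rest and 74574, 78708 and 66692 with LPS. Its log2 fold change was 2.87 (SE 0.0756), and no groups overlapped for any of the 3 receptors.

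The receptor-bound proteins covered the widest range. Traf1, a TRAF family adaptor induced by NF-kB, had 103, 45.7 and 40.2 normalised counts at rest and 14107, 12545 and 11002 with LPS, the largest rise of the 10 genes (197-fold, log2 fold change 7.63, SE 0.325, DESeq2 adjusted p 9.05e-121). Unstimulated replicate 1 was well above the other 2, and without it the log2 fold change was 8.21. Birc3 (cIAP2), an IAP ubiquitin ligase that modifies Ripk1, had 701, 452 and 535 at rest and 6275, 5818 and 6281 with LPS (log2 fold change 3.43, SE 0.117, DESeq2 adjusted p 4.05e-188). Unstimulated replicate 1 was again the highest at rest, and the groups stood far apart.

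Ripk1, the kinase and scaffold shared by both complexes, moved little. Its normalised counts were 1164, 1236 and 1273 at rest and 1509, 1435 and 1599 with LPS, without overlap (log2 fold change 0.31, SE 0.0686, DESeq2 adjusted p 1.84e-05). The direction of this change turned with the scaling, to -0.62 with total-count scaling and -0.46 with log2(TPM + 1), so that Ripk1 was higher with LPS relative to the typical gene and lower as a share of all counts. Ripk1 (mm9 chromosome 13, 34094232 to 34127039, plus strand) also overlaps the transcript Gm17084 on the same strand by 2108 bases, and the pseudogene Gm17083 and Serpinb6a on the opposite strand by 1366 and 432 bases, and the counting used for these files did not take strand into account by default.

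Casp8, the initiator protease of death receptors, had 798, 846 and 783 normalised counts at rest and 2959, 2888 and 2804 with LPS (log2 fold change 1.84, SE 0.0638, DESeq2 adjusted p 2.18e-181). Cflar, its catalytically inactive partner, had 1447, 1192 and 1165 at rest and 38303, 35918 and 41398 with LPS, a 30.3-fold rise (log2 4.92, SE 0.0870). The 2 genes are neighbours on chromosome 1, with Cflar at 58768352 to 58815728 and Casp8 at 58852218 to 58904347 of mm9, both on the plus strand and 36490 bases apart. LPS libraries of both genes lay above all unstimulated libraries.

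The 2 necroptosis genes went different ways. Mlkl, the pore-forming executioner, had 156, 98.1 and 101 normalised counts at rest and 3376, 3229 and 3314 with LPS, a 27.5-fold rise (log2 4.78, SE 0.122). Ripk3, the kinase that activates it, had 115, 94.7 and 83.8 at rest and 65.0, 88.9 and 66.3 with LPS, and the groups overlapped through LPS replicate 2. Its log2 fold change was -0.40 (95% interval -0.82 to 0.01) and missed the threshold (DESeq2 adjusted p 0.0842, over 19 alternatives 1.35e-09 to 0.643). The call was gained with edgeR (-0.48, adjusted p 0.0302), TMM factors (-0.48, adjusted p 0.0371) and total-count scaling (-1.33, adjusted p 1.35e-09). Limma on log2(TPM + 1) (-0.99, adjusted p 2.14e-05) and log2(TPM + 0.1) (-1.165, adjusted p 2.02e-05) also called it lower. So did the fits without LPS replicate 2 (-0.58, adjusted p 0.0287), unstimulated replicate 3 (-0.52, adjusted p 0.0417) or replicate 2 of all groups (-0.59, adjusted p 0.0328). The other alternatives did not call it.

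RefSeq promoter windows, from 250 bases before to 50 after the start site in GRCm38.p6, were available for all 10 genes, with a second start for Ripk1. They were searched on both strands for an NF-kB (kappa B) consensus, for the interferon response core (the letters TTTC, any 2 bases, and TTTC again), for the AP-1 site TGANTCA and for the STAT-type site TTCNNNGAA. The interferon core was found in 3.44% of all 32851 promoter windows (3.99% of genes). Among the 10 genes it was found for 3, Tnfrsf1b, Cflar and the second start of Ripk1. The STAT-type site was found in 8.30% of all windows (9.55% of genes) and in those of 4 of the 10 genes (Fas, Tnfrsf1a, Tnfrsf1b and Ripk1). The AP-1 site was found in 7.81% of all windows (8.97% of genes) and, among the 10 genes, in that of Fas alone. The kappa B consensus was found in 8.46% of all windows (9.55% of genes) and in none of the 10 genes. A match is only a run of letters and no match says only that these letters are not in these 300 bases. In the windows below, 5′ to 3′ on the strand of the gene, capitals mark matches to the interferon core, the AP-1 site or the STAT-type site. In the second Ripk1 window a STAT-type match and an interferon core on the minus strand run into each other. They are chr4:145246821-145247120 (minus strand) for Tnfrsf1b, chr1:58711241-58711540 (plus strand) for Cflar, chr19:34290409-34290708 (plus strand) for Fas and chr13:34002624-34002923 (plus strand) for Ripk1, shown because they hold every match to the interferon core and to the AP-1 site among the 10 genes and because these genes span strong and weak responses to LPS.
Tnfrsf1b: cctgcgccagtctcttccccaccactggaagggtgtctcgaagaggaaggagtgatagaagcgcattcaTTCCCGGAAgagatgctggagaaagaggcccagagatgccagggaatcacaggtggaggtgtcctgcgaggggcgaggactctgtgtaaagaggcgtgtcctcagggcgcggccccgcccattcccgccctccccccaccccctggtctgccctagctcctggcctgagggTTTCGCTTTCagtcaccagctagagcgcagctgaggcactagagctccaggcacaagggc
Cflar: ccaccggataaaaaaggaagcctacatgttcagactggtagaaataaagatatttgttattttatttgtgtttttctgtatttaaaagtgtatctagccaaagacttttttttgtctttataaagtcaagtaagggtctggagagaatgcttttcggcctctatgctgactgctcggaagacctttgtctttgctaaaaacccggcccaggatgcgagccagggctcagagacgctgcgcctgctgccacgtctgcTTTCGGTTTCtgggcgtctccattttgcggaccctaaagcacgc
Fas: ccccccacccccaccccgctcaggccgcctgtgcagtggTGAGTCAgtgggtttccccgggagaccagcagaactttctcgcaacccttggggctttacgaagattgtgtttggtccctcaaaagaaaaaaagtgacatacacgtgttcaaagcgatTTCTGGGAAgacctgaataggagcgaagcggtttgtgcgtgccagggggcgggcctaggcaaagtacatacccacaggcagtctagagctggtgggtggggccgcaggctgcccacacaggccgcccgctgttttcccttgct
Ripk1, second start: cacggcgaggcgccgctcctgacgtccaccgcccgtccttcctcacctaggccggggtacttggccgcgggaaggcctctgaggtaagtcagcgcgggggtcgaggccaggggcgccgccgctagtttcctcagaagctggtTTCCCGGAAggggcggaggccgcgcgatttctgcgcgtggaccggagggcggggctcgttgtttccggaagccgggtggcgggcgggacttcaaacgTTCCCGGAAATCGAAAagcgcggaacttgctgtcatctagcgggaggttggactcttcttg

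JQ1 given before LPS lowered 8 of the 10 genes relative to LPS alone and raised 1, where 32.9% of 14326 tested genes were called lower, 24.4% higher and 57.3% either way. The median log2 fold change of the 10 genes was -1.04, against -0.11 over all tested genes, a value that was 0.25 with total-count scaling and 0.17 with log2(TPM + 1). Of all calls 42.5% were higher, and 64.9% were with total-count scaling. The 8 lowered genes kept their direction under every scaling tried.

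Traf1 fell most. Its normalised counts in LPS + JQ1 replicates 1, 2 and 3 were 940, 796 and 944, all far below the LPS libraries listed above (log2 fold change -3.81, SE 0.309, DESeq2 adjusted p 6.36e-34), a 14.1-fold reduction. Mlkl was next, with 741, 811 and 746 (log2 fold change -2.11, SE 0.103, DESeq2 adjusted p 5.37e-92). Both genes were still far above their unstimulated levels.

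The receptors fell by different amounts. Tnfrsf1a had 2052, 2054 and 2212 normalised counts with LPS + JQ1, close to its unstimulated level of 1808 to 2010 (log2 fold change against LPS -1.48, SE 0.0623, DESeq2 adjusted p 9.82e-123). Tnfrsf1b had 43101, 43477 and 41277, a smaller reduction (log2 fold change -0.78, SE 0.0752, DESeq2 adjusted p 2.20e-24). Fas had 328, 389 and 320 (log2 fold change -0.69, SE 0.124, DESeq2 adjusted p 6.93e-08). All 3 receptors lay below every LPS library, but the Fas call was lost with limma on log2(TPM + 1), at -0.51 and adjusted p 0.0542 (1.65e-08 to 0.102 over 19 alternatives).

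Birc3 had 2373, 2478 and 2376 normalised counts with LPS + JQ1 (log2 fold change -1.35, SE 0.113, DESeq2 adjusted p 1.14e-31). Casp8 had 1342, 1456 and 1301 (log2 fold change -1.08, SE 0.0617, DESeq2 adjusted p 1.46e-66), and Cflar had 19401, 19073 and 19090 (log2 fold change -1.01, SE 0.0840, DESeq2 adjusted p 6.43e-32). The protease was reduced 2.11-fold and its regulator 2.01-fold.

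The 2 receptor-interacting kinases did not fall. Ripk1 had 1496, 1525 and 1505 normalised counts with LPS + JQ1, inside the range of the LPS libraries. Its log2 fold change of -0.00 (95% interval -0.14 to 0.13) missed the threshold (DESeq2 adjusted p 0.975), and was 0.37 with total-count scaling and 0.29 with log2(TPM + 1), where it passed. Ripk3 rose to 171, 144 and 186 from 65.0, 88.9 and 66.3, with all LPS + JQ1 libraries above all LPS libraries (log2 fold change 1.17, 95% interval 0.77 to 1.58, DESeq2 adjusted p 4.87e-08). Ripk3 was higher under every scaling tried and without each library in turn.

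**Figure D2:**
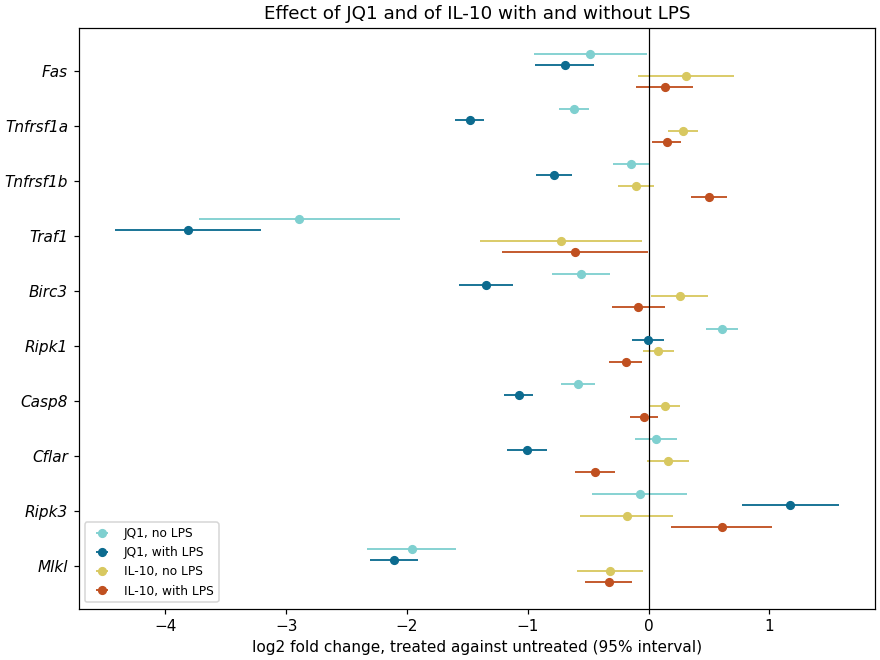
Log2 fold change of each gene with JQ1 or IL-10 against no pretreatment, without LPS and with LPS, with 95% intervals of the DESeq2 fit over 3 replicates a group. With LPS, JQ1 (dark blue) lies left of 0 for 8 genes, from -0.69 for Fas to -3.81 for Traf1, at 0 for Ripk1 and right of 0 for Ripk3 (1.17), and the IL-10 effects lie between -0.61 and 0.60.

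Without LPS, JQ1 lowered 5 of the 10 genes and raised 1, where 23.7% of 13686 tested genes were called lower, 21.9% higher and 45.7% either way. The median log2 fold change of the 10 genes was -0.52, against -0.00 over all tested genes. Of all calls 48% were higher, and 26.8% were with total-count scaling. Traf1 had the lowest values of the series in these libraries, 7.78, 5.92 and 11.9 normalised counts against 40.2 to 103 at rest (log2 fold change -2.89, SE 0.424, DESeq2 adjusted p 9.31e-11). Without unstimulated replicate 1, the high library, its log2 fold change was -2.30. Mlkl had 32.9, 31.5 and 28.4 against 98.1 to 156 (log2 fold change -1.96, SE 0.188, DESeq2 adjusted p 5.85e-24). Both genes were thus lowered by JQ1 in the same direction with and without LPS, and the groups did not overlap.

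Tnfrsf1a also fell without LPS, to 1249, 1192 and 1233 normalised counts (log2 fold change -0.62, DESeq2 adjusted p 6.66e-20). Casp8 fell to 571, 541 and 496 (-0.59, DESeq2 adjusted p 1.55e-15), and Birc3 to 419, 369 and 365 (-0.56, DESeq2 adjusted p 2.54e-05). Ripk1 rose, to 1858, 1920 and 1814 from 1164 to 1273, its highest level in any group (log2 fold change 0.61, SE 0.0670, DESeq2 adjusted p 2.90e-18). The direction of these 4 changes held under every scaling tried.

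The other 4 genes missed the threshold. Cflar was at 1385, 1308 and 1289 normalised counts, overlapping the unstimulated libraries (log2 fold change 0.06, 95% interval -0.11 to 0.24, and -0.11 with total-count scaling), and Ripk3 at 92.5, 84.8 and 102 (-0.07, 95% interval -0.47 to 0.32). Fas, with 23.4, 23.7 and 24.7, had a log2 fold change of -0.48 (DESeq2 adjusted p 0.0864). It passed without unstimulated replicate 2, its lowest library (-0.65, adjusted p 0.0177), and with total-count scaling (-0.66, adjusted p 0.0194), within 0.0177 to 0.546 over 19 alternatives. Tnfrsf1b, with 8827, 9591 and 8914, lay below all unstimulated libraries at -0.14 (DESeq2 adjusted p 0.113). It passed with total-count scaling (-0.32, adjusted p 4.02e-05), with limma on log2(TPM + 1) (-0.35, adjusted p 0.000374) and with the compared groups alone (-0.15, adjusted p 0.0352), within 4.02e-05 to 0.401 over 19 alternatives.

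The effect of JQ1 differed between cells with and without LPS for 7 of the 10 genes by the interaction term, 6 lower and 1 higher, where 23.8% of 12727 tested genes were called lower, 17.7% higher and 41.5% either way. Of all calls 42.6% were higher, and 85.4% were with total-count scaling. The effect of JQ1 was more negative with LPS for Cflar (difference of log2 fold changes -1.07), Tnfrsf1a (-0.86), Birc3 (-0.79), Tnfrsf1b (-0.64) and Casp8 (-0.49). Without LPS the effects on Cflar (0.06) and Tnfrsf1b (-0.14) had missed the threshold. For Ripk1 the effect of JQ1 went from 0.61 without LPS to -0.00 with it (-0.61), and for Ripk3 from -0.07 to 1.17 (1.25, DESeq2 adjusted p 7.65e-05). Only Cflar (-0.52), Tnfrsf1a (-0.31) and Ripk3 (1.80) passed with total-count scaling, where the median interaction of all genes was 0.51 instead of -0.05. The interaction of Casp8 turned to 0.07 there. For Fas (-0.21), Traf1 (-0.92) and Mlkl (-0.15) the interaction missed the threshold, and those of Fas and Mlkl turned to 0.34 and 0.41 with total-count scaling. That of Traf1 passed without unstimulated replicate 1 (-1.51, adjusted p 0.000785) and without replicate 1 of all groups (-1.54, adjusted p 0.00141). It also passed with limma on log2(TPM + 1) (-2.115, adjusted p 1.82e-05), within 1.82e-05 to 0.692 over 25 alternatives. The Ripk3 interaction missed the threshold without replicate 1 of all groups (1.00, adjusted p 0.0600, 6.72e-09 to 0.0600 over 25 alternatives).

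IL-10 given before LPS changed 5 of the 10 genes relative to LPS alone, 2 higher and 3 lower, where 8.38% of 11448 tested genes were called higher, 8.81% lower and 17.2% either way. The median log2 fold change of the 10 genes was -0.06, against -0.02 over all tested genes. Of all calls 48.7% were higher, and 71.1% were with total-count scaling. Tnfrsf1b rose above its LPS level, to 101971, 112436 and 96328 normalised counts from 66692 to 78708 (log2 fold change 0.50, SE 0.0751, DESeq2 adjusted p 1.40e-09). Cflar fell to 29163, 25569 and 30324 from 35918 to 41398 (log2 fold change -0.44, SE 0.0839, DESeq2 adjusted p 3.02e-06). The groups did not overlap for either gene, and neither call was lost when any 1 library was left out, although that of Cflar was lost with limma on log2(TPM + 1) (-0.31, adjusted p 0.0622, 1.51e-07 to 0.0633 over 19 alternatives).

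The other 3 calls depended on single libraries, and those of Mlkl and Ripk1 also on the scaling. Mlkl fell to 2758, 2417 and 2703 normalised counts from 3229 to 3376 (log2 fold change -0.33, DESeq2 adjusted p 0.00716). It lost the call without LPS replicate 1 (adjusted p 0.0542) or LPS + IL-10 replicate 2 (0.0693). The call was also lost with total-count scaling (-0.24, adjusted p 0.0749) and with limma on log2(TPM + 1) (-0.22, adjusted p 0.295), within 0.00734 to 0.330 over 19 alternatives. Ripk3 had 93.4, 155 and 93.8, above the 65.0 to 88.9 of LPS alone (log2 fold change 0.60, DESeq2 adjusted p 0.0302). LPS + IL-10 replicate 2 was the high library, and without it the log2 fold change was 0.33 (adjusted p 0.394). The call was also lost without LPS replicate 1 (adjusted p 0.134) or 3 (0.131), within 0.00976 to 0.394 over 19 alternatives.

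Ripk1 had 1348, 1202 and 1418 normalised counts with LPS + IL-10 (log2 fold change -0.19, DESeq2 adjusted p 0.0390). This call was lost with edgeR (adjusted p 0.175), with TMM (0.0638), total-count (0.421) and TPM (0.605) scaling, and without LPS replicate 1 (0.0911) or 3 (0.217) or LPS + IL-10 replicate 1 (0.0727) or 2 (0.282), within 0.00988 to 0.605 over 19 alternatives. Traf1 had 9918, 7395 and 7400 normalised counts, below the LPS libraries (log2 fold change -0.61, 95% interval -1.21 to -0.01). It missed the threshold (DESeq2 adjusted p 0.185) but passed with edgeR (adjusted p 0.0189) and without replicate 1 of all groups (3.97e-05), within 3.97e-05 to 0.640 over 19 alternatives. Tnfrsf1a had 6780, 6698 and 6082 (0.15, DESeq2 adjusted p 0.0700) and passed without LPS + IL-10 replicate 3 (0.20, adjusted p 0.00788). It also passed with total-count scaling (0.24, adjusted p 0.000603) and with limma on log2(TPM + 1) (0.26, adjusted p 0.0157) and log2(TPM + 0.1) (0.26, adjusted p 0.0156), within 0.000603 to 0.547 over 19 alternatives. Fas (574, 599 and 667), Birc3 (5907, 5272 and 6142) and Casp8 (2854, 2701 and 2855) overlapped the LPS libraries, with log2 fold changes of 0.13, -0.08 and -0.04.

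Without LPS, IL-10 changed 1 of the 10 genes, where 2.81% of 12727 tested genes were called with 1.80% higher and 1.01% lower. Of all calls 64% were higher, and 84.8% were with log2(TPM + 1). Tnfrsf1a rose to 2311, 2252 and 2302 normalised counts from 1808 to 2010 (log2 fold change 0.28, SE 0.0627, DESeq2 adjusted p 0.000721). The call was lost with edgeR, where 0 of the 10 genes passed (adjusted p 0.05002 for Tnfrsf1a) and 4 had an unadjusted p under 0.05, against 5 with DESeq2. It was also lost without replicate 2 (adjusted p 0.228) or 3 (0.0728) of all groups, within 5.96e-05 to 0.228 over 19 alternatives. Without unstimulated replicate 1, Birc3 (0.44, adjusted p 0.00150) and Cflar (0.27, adjusted p 0.0474) passed as well.

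The effect of IL-10 differed between cells with and without LPS for 2 of the 10 genes, where 4.00% of 10808 tested genes were called higher, 3.44% lower and 7.44% either way. Of all calls 53.7% were higher, and 73.6% were with total-count scaling. The effect on Tnfrsf1b was more positive with LPS (difference of log2 fold changes 0.61, DESeq2 adjusted p 1.20e-06), and that on Cflar more negative (-0.60, DESeq2 adjusted p 4.65e-05). The Cflar interaction missed the threshold with limma on log2(TPM + 1) (-0.54, adjusted p 0.0536, 2.40e-08 to 0.0582 over 25 alternatives). Ripk1 and Ripk3 joined these 2 genes when LPS replicate 2 or LPS + IL-10 replicate 3 was left out, which brought the count to 4.

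All 10 genes differed between LPS + JQ1 and LPS + IL-10, 8 lower and 2 higher with JQ1, where 31.6% of 14326 tested genes were called lower, 23.8% higher and 55.3% either way. Of all calls 42.9% were higher, and 61.3% were with total-count scaling. The differences ran from -0.56 for Cflar (DESeq2 adjusted p 9.96e-11) to -3.21 for Traf1 on the log2 scale among the 8 lower genes, and Tnfrsf1b was 2.43-fold lower. Ripk1 was higher with JQ1 (0.19, DESeq2 adjusted p 0.0146), a call lost without LPS + IL-10 replicate 2 (0.12, adjusted p 0.123, 1.94e-10 to 0.298 over 19 alternatives). Ripk3 was higher with JQ1 (0.57, DESeq2 adjusted p 0.00825) although LPS + IL-10 replicate 2 (155) lay within the LPS + JQ1 range. That call was lost without LPS + JQ1 replicate 3 (0.48, adjusted p 0.0559) or LPS + IL-10 replicate 1 (0.0724) or 3 (0.0861), within 5.99e-05 to 0.284 over 19 alternatives.

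The response to LPS was then measured within each pretreatment, with the controls given the same agent. In JQ1-treated cells LPS raised 9 of the 10 genes and lowered 1, where 27.6% of 13686 tested genes were called higher, 31.0% lower and 58.6% either way. Of all calls 47.1% were higher, and 25.6% were with total-count scaling. Traf1 still rose by 6.70 on the log2 scale from its very low JQ1 level, Mlkl by 4.63, Fas by 3.86, Cflar by 3.85, Birc3 by 2.65, Tnfrsf1b by 2.23, Casp8 by 1.35 and Tnfrsf1a by 0.78. Ripk3 rose in these cells (0.84, DESeq2 adjusted p 4.25e-05), whereas Ripk1 fell (-0.30, DESeq2 adjusted p 1.40e-05).

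In IL-10-treated cells LPS raised 8 of the 10 genes, where 33.2% of 14326 tested genes were called higher, 33.8% lower and 67.0% either way. Of all calls 49.6% were higher, and 21.0% were with total-count scaling. The largest changes were again those of Traf1 (7.75), Mlkl (4.77) and Cflar (4.32). Ripk1 (0.04, DESeq2 adjusted p 0.649) missed the threshold and turned to -0.79 with total-count scaling and -0.67 with log2(TPM + 1). Ripk3 (0.38, DESeq2 adjusted p 0.0777) passed without LPS + IL-10 replicate 1 (0.50, adjusted p 0.0360) or 3 (0.52, adjusted p 0.0304), and turned to -0.44 with total-count scaling, within 0.0304 to 0.690 over 19 alternatives.

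**Figure D3:**
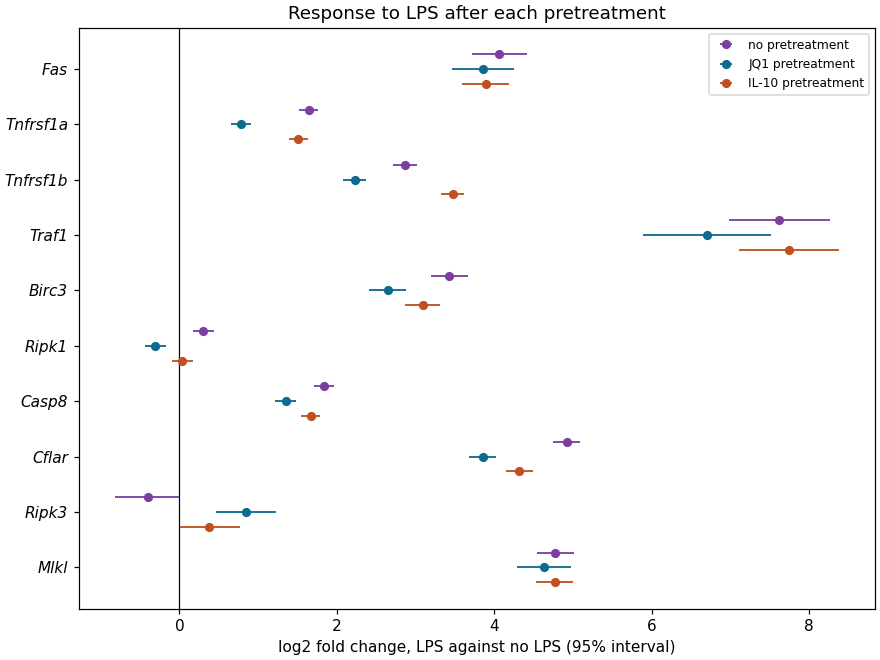
Log2 fold change of each gene with LPS against no LPS in cells with no pretreatment, with JQ1 or with IL-10, with 95% intervals of the DESeq2 fit over 3 replicates a group. The fold changes run from 7.75 for Traf1 after IL-10 to -0.40 for Ripk3 without pretreatment, and Ripk1 stays between -0.30 and 0.31.

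Set against untreated resting cells, LPS + JQ1 cells were higher in all 10 genes, where 30.1% of 14645 tested genes were called higher, 32.3% lower and 62.4% either way. Of all calls 48.2% were higher, and 22.3% were with total-count scaling. The response that remained differed widely between genes, from 3.92 for Cflar, 3.81 for Traf1 and 3.37 for Fas on the log2 scale to 2.67 for Mlkl, 2.09 for Birc3 and 2.08 for Tnfrsf1b. Casp8 (0.77), Ripk3 (0.77, DESeq2 adjusted p 0.000182) and Ripk1 (0.30) followed. The Ripk3 call was lost with total-count scaling (0.22, adjusted p 0.347) and without replicate 3 of all groups (0.58, adjusted p 0.0519), within 7.64e-05 to 0.347 over 19 alternatives, and Ripk1 turned to -0.25 with total-count scaling. Tnfrsf1a was back near rest (0.16, DESeq2 adjusted p 0.0189), turned to -0.39 with total-count scaling, and was not called without unstimulated replicate 2 (adjusted p 0.0746) or 3 (0.105) or LPS + JQ1 replicate 3 (0.105), within 2.97e-09 to 0.279 over 19 alternatives.

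Ratios of 2 genes within a library do not depend on how libraries are scaled, and 3 pairs were formed after the data had been seen, as a description without a test. The TPM ratio of Tnfrsf1b to Tnfrsf1a was 2.01, 2.46 and 2.24 in unstimulated replicates, 5.18, 5.40 and 4.98 with LPS. After JQ1 pretreatment the LPS libraries had 8.72, 8.82 and 7.80, and after IL-10 pretreatment 6.25, 7.02 and 6.58. Without LPS the ratio was 2.93, 3.34 and 3.01 with JQ1, above all unstimulated libraries, and 1.60, 1.83 and 1.66 with IL-10, below them all. In each LPS group it leaned further toward the receptor without a death domain than in any group without LPS, without overlap, and most with JQ1.

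The TPM ratio of Cflar to Casp8 was 0.672, 0.510 and 0.558 in unstimulated replicates and 0.861, 0.881 and 0.905 with JQ1 alone, above all unstimulated libraries. With LPS it was 5.14, 5.02 and 6.05. Its values were 5.55, 5.09 and 5.59 with LPS + JQ1, inside the spread of LPS alone, and 4.18, 3.88 and 4.41 with LPS + IL-10, below both. The ratios with and without JQ1 during LPS differed by less than the spread between replicates.

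The TPM ratio of Mlkl to Ripk3 was 1.27, 0.969 and 1.12 in unstimulated replicates and 0.332, 0.346 and 0.261 with JQ1. It reached 48.3, 33.9 and 46.5 with LPS, 27.5, 14.5 and 26.9 with LPS + IL-10 and 4.04, 5.24 and 3.75 with LPS + JQ1. The LPS + JQ1 ratio lay apart from both of the other LPS groups and above the resting ratio in every library.

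**Figure D4:**
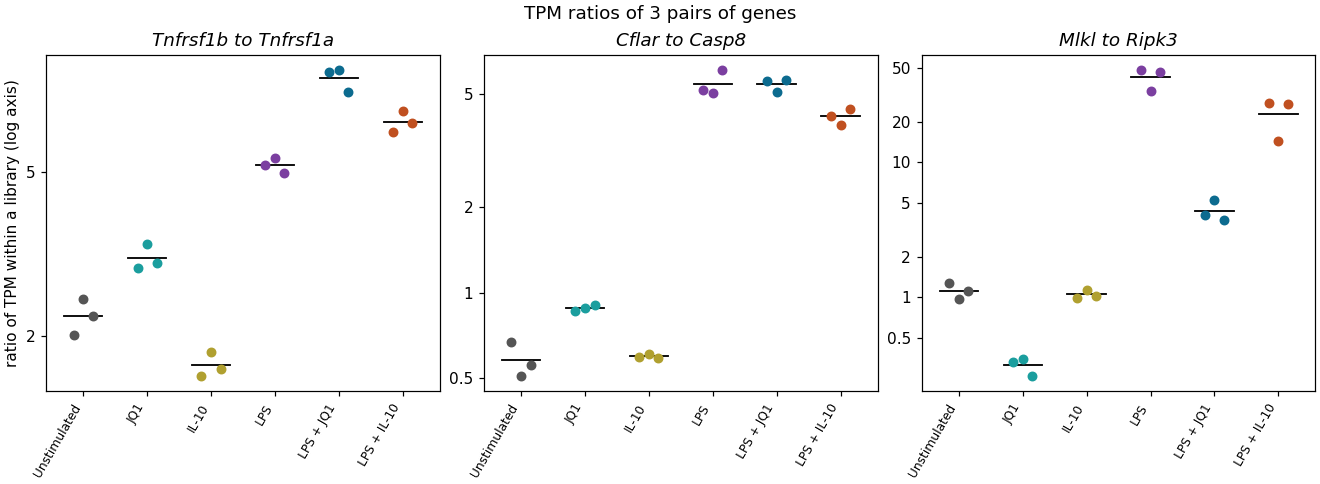
TPM ratio of Tnfrsf1b to Tnfrsf1a, Cflar to Casp8 and Mlkl to Ripk3 within each of the 18 libraries (log axis). Points are replicates 1, 2 and 3 from left to right and bars are group means. The Cflar to Casp8 mean is 5.41 in both LPS and LPS + JQ1, while the Mlkl to Ripk3 mean falls from 42.9 to 4.34.

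A list of 67 other genes of the pathway was described beside the 10. With LPS, 42 of the 65 that were tested were higher and 14 lower, where 31.6% and 32.9% of all tested genes were, with a median log2 fold change of 1.15. These counts depend on the scaling, at 29 higher and 26 lower of 64 with total-count scaling and 31 and 24 of 60 with limma on log2(TPM + 1). All 4 tested TNF family ligands of the list rose, among them Tnf (8.69, SE 0.255) and Tnfsf15 (8.48, SE 0.419, DESeq2 adjusted p 5.27e-90). Not all of them bind the 3 receptors among the 10 genes. Fasl, the ligand of Fas, had at most 1.23 normalised counts in any library and was not tested. Cd40, a TNF receptor family member that signals through TRAFs, rose most of all named genes (9.87, SE 0.277). Another 8 genes were listed under necroptosis (Zbp1, Pgam5, Ppm1b, Stub1, Chmp2a, Chmp4b, Trim21 and Ripk2). They mix genes that promote necroptosis with genes that restrain it or act mainly elsewhere. Their counts therefore give no direction for the pathway. Of these 8, 7 rose and none fell (5 and 2 with total-count scaling, where Stub1 and Pgam5 were lower). The nucleic acid sensor Zbp1 was among those that rose (5.67, DESeq2 adjusted p 4.52e-44), with unstimulated replicate 1 at 245 normalised counts against 59.2 and 62.3. Of 10 kinases that restrain Ripk1 and their partners, 9 rose and 1 fell (6 and 4 with total-count scaling), the lower one being Tab1 (-2.35, DESeq2 adjusted p 2.52e-41). The 10 caspases and execution genes divided into 5 higher and 5 lower (4 and 5 with total-count scaling), with Casp9, the initiator of the mitochondrial route, the lowest (-2.69, DESeq2 adjusted p 7.51e-121), and the death receptor Tnfrsf21 (DR6) fell by 2.62 on the log2 scale (DESeq2 adjusted p 1.89e-115).

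JQ1 during LPS lowered 34 of 64 tested genes of this list and raised 16, where 32.9% and 24.4% of all tested genes were called, with a median log2 fold change of -0.45. With total-count scaling 27 were lower and 22 higher. All 4 tested ligands fell, Tnfsf15 (-5.08, DESeq2 adjusted p 1.93e-50), Tnfsf10 (TRAIL, -3.68, DESeq2 adjusted p 4.90e-136), Lta (-2.33) and Tnf (-1.94). Of the 8 genes listed under necroptosis, which do not all act in the same direction, 6 fell and 1 rose (4 and 2 with total-count scaling). Zbp1 was at 659, 669 and 700 normalised counts against 6461, 6461 and 5931 with LPS (-3.22, DESeq2 adjusted p 3.46e-15). The 1 that rose was Stub1, an E3 ubiquitin ligase known to act on Ripk1 and Ripk3 (1.21, DESeq2 adjusted p 1.02e-28). Casp9 (1.27, DESeq2 adjusted p 9.54e-24) and Bid (0.99, DESeq2 adjusted p 1.01e-28), which links Casp8 to mitochondria, rose as well. Of the 5 genes of the IAP group, with the antagonist Diablo, 3 fell and none rose (2 and 2 with total-count scaling). Among the 10 kinases that restrain Ripk1 and their partners, 6 fell and 2 rose (5 and 4 with total-count scaling).

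IL-10 during LPS changed 14 of 60 tested genes of the list, 5 higher and 9 lower, where 8.38% and 8.81% of all tested genes were called, with a median log2 fold change of -0.06. With total-count scaling 11 were higher and 7 lower. Tnf fell (-1.38, DESeq2 adjusted p 9.97e-07), as did Traf5 (-0.70, DESeq2 adjusted p 1.57e-07) and the kinase Ripk2 (-0.68, DESeq2 adjusted p 7.11e-12). Tnip1 (ABIN-1), which restrains signalling from ubiquitin chains, rose (0.70, DESeq2 adjusted p 5.68e-07), and so did Casp9 (0.58) and Casp6 (0.53, DESeq2 adjusted p 0.0262). Without LPS, JQ1 raised 15 and lowered 16 of 63 tested genes, near the 21.9% and 23.7% of all tested genes (9 and 26 with total-count scaling). IL-10 raised 1 of 63 and lowered none, where 2.81% of all tested genes were called.

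For each gene except Ripk1 the 2 genes with the most similar pattern were named by Pearson's r of log2(normalised count + 1) over the 18 libraries, among 8377 genes with a mean of at least 100. The r is a description, since the 18 libraries share the same 6 groups and the search was wide. Cflar was most like Jak2 and Sp140 (r 0.999 each), Mlkl like Gbp9 and Il15ra (0.998 and 0.997), Traf1 like Helz2 and Oaf (0.997 and 0.996), and Birc3 like Car13 and Bcl2a1a (0.997 each). Casp8 was most like Ppfibp1 and Gpr85 (0.996 each), Tnfrsf1a like Slc39a1 and Flii (0.995 and 0.994), Tnfrsf1b like Trim56 and Inpp5b (0.994 each) and Fas like Casp4 and Fcer1g (0.993 each). Ripk3 had less close neighbours, Hras and Zfp511 (0.864 and 0.852).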

How the data were processed

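RNA of 18 libraries (6 groups, 3 mice) was sequenced from KAPA stranded RiboErase libraries. The authors aligned reads to mm9 with STAR and deposited, per gene, RSEM 1.2.31 expected counts, TPM and FPKM, and the FPKM values deposited by the authors were not used. Expected counts were rounded to whole numbers and fitted in 1 model over all groups with the DESeq2 1.42.0 Wald test (the study names pairwise DESeq2 Wald tests, not this joint fit or the rounding), with Benjamini-Hochberg adjustment over all genes tested and a threshold of 0.05. DESeq2 adjusted p-values of NA stayed NA. Alternatives were edgeR 4.0.16 quasi-likelihood, limma 3.58.1 on log2(TPM + 1) and log2(TPM + 0.1), TMM and total-count scaling, a filter of 10 counts in 3 libraries, an effective length offset, replicate as a block, lane as a covariate, the compared groups alone, and each library or replicate left out. All ran in R 4.3.3, tested on simulated data.

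The 10 genes and the list of 67 were chosen with earlier results of these data known. All 10 genes were described. Of the list's genes with normalised counts averaging 100 or more, the 3 called ones with the largest change in each direction were named. This was done for LPS and for each agent during LPS, and others given were chosen after their values were seen. Genes with lower counts could change more. Tnfrsf22, with an average of 38.3, had a log2 fold change of -3.075 with LPS, a larger fall than that of Casp9. Total counts per library, 6781952 to 28289498, set the precision, with 3 libraries a group. The genes most like Ripk1 and 1 marker of another cell type are not reported here.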

Additional observations from a re-analysis of the deposited data

Results flagged for a closer look

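The effect of JQ1 differed between cells with and without LPS, by the interaction term of the DESeq2 fit, for 7 of the 10 genes, where 41.5% of 12727 tested genes were called. The difference of log2 fold changes (with LPS minus without) was -1.07 for Cflar, -0.86 for Tnfrsf1a, -0.79 for Birc3, -0.64 for Tnfrsf1b, -0.61 for Ripk1 and -0.49 for Casp8, and 1.25 for Ripk3. Those of Birc3, Tnfrsf1b, Ripk1 and Casp8 were not called with total-count scaling (-0.23, -0.09, -0.06 and 0.07). By the same term the effect of IL-10 differed for Tnfrsf1b (0.61) and Cflar (-0.60), where 7.44% of 10808 tested genes were called.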

How the results depend on the processing

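Of 2210 values of single genes under alternatives, 2090 kept their side of the threshold, 42 of them uncalled values whose sign turned, 64 lost a call, 37 gained one and 19 turned direction and were called in at least 1 of the fits compared. All 19 came with total-count scaling, log2(TPM + 1) or log2(TPM + 0.1), given in that order, under which the median of all genes also moved. Ripk1 turned to -0.62, -0.46 and -0.47 for LPS against unstimulated, to 0.37, 0.29 and 0.30 for LPS + JQ1 against LPS, to -0.79, -0.67 and -0.69 for LPS in IL-10-treated cells, and to -0.25, -0.17 and -0.17 for LPS + JQ1 against unstimulated. Tnfrsf1a turned to -0.39, -0.31 and -0.31 for LPS + JQ1 against unstimulated, the JQ1 interaction of Casp8 to 0.065, 0.0011 and 0.012, and Ripk3 in IL-10-treated cells to -0.44 with total-count scaling alone. The count of genes changed by IL-10 without LPS was 1, 0 with edgeR and 0 to 3 with libraries left out. The count for IL-10 during LPS was 5, 3 with limma at either pseudocount and 2 to 6 with libraries left out. The JQ1 interaction count was 7, 3 with total-count scaling, 4 with limma on log2(TPM + 1) and 3 on log2(TPM + 0.1). The IL-10 interaction count was 2, 1 with limma at either pseudocount and 2 to 4 with libraries left out. Other causes were not tested. The ratio of Cflar to Casp8 relative to unstimulated cells was 1.58 with JQ1 and 6.43 with LPS + IL-10 from counts, and 1.52 and 7.17 from TPM.

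The labels do not say that a replicate number marks 1 mouse. Over 9 comparisons, deviations of same-numbered libraries from their group means correlated at -0.315 to 0.787. In 35 of 54 instances a library correlated best with its own number among the 3 of the other group. The 54 instances, 6 in each comparison, reuse the same 18 libraries and are not independent. With the replicate block JQ1 without LPS changed 7 genes instead of 6, through Tnfrsf1b (adjusted p 0.00874), and the block changed no other call among the 10 genes. Depth limits Traf1 and Fas most, with lowest expected counts of 6 and 10.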
